A study of Mus musculus with 5 samples.

Results

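YAP, TAZ, the TEAD transcription factors and 4 of their target genes were followed in tumours of small cell lung cancer (SCLC), a neuroendocrine cancer, grown in mice. The set holds 10 genes of the 54532 in the deposited read count table, taken by gene name: Yap1, Wwtr1 (which encodes TAZ), Tead1, Tead2, Tead3, Tead4, Cyr61 (now named Ccn1), Ctgf (now named Ccn2), Amotl2 and Lats2. All 10 passed the filter on low counts that left 17906 genes for testing. The series holds bulk RNA-seq of 5 lung tumours that were frozen at necropsy, 3 labelled LSN and 2 labelled vehicle, and its design text describes the treated ones as given a drug that blocks the mitotic kinase Aurora A. All 5 tumours carry the genotype label RPP, which the labels do not expand. The sources used here give neither dose nor length of treatment, and neither the age of the animals nor how the tumours were started.

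YAP and TAZ are co-activators that cannot bind DNA themselves and act through the TEAD factors. The Hippo kinases LATS1 and LATS2 phosphorylate both and keep them in the cytoplasm. Cyr61 and Ctgf encode secreted matricellular proteins and are the usual readouts of YAP activity, whereas Amotl2 and Lats2 encode inhibitors of YAP that YAP itself induces. In small cell lung cancer YAP is typically low or absent in neuroendocrine tumour cells and present in non-neuroendocrine tumour cells, and it is also active in fibroblasts, endothelium and alveolar type 1 cells.

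TEAD factors bind the letters CATTCC, or GGAATG on the other strand. RefSeq promoter windows of build GRCm38.p6 were searched on both strands over the 250 bases before the start site, and they were found for 7 of the 10 genes. These letters stood in at least 1 window of 5 of the 7, namely Yap1, Wwtr1, Tead3, Cyr61 and Amotl2, and in no window of Tead2 or Lats2. Over all 27025 genes with a window, 14.4% held them, and over all 32851 windows 12.6% did. The AP-1 letters TGACTCA, or TGAGTCA on the other strand, were in 0 of the 11 windows of these genes, against 4.46% of all windows. A match describes the letters of the window and does not show binding. The windows of both co-activators and of 3 targets are printed 5′ to 3′ because these genes carry the comparison that follows, with the TEAD letters in capitals. The first base of the letters lay 141 bases before the start in Yap1, 136 in Wwtr1, 103 in Cyr61 and 65 in Amotl2.
Yap1 (chr9:8004597-8004846, minus strand): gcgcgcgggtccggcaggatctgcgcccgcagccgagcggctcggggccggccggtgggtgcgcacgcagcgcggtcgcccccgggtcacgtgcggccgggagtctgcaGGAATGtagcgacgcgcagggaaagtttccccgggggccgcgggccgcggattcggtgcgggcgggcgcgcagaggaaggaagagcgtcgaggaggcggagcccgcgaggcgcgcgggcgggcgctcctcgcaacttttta
Wwtr1 (chr3:57575911-57576160, minus strand): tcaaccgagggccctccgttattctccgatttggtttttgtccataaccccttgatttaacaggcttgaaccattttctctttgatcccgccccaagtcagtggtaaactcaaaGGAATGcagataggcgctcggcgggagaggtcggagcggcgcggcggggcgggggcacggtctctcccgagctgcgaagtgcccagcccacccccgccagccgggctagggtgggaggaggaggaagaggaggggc
Cyr61 (chr3:145649986-145650235, minus strand): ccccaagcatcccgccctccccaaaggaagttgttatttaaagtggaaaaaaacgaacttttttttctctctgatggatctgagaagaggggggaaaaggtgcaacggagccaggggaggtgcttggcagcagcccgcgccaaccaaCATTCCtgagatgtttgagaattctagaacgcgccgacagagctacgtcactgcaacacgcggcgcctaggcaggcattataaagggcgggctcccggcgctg
Amotl2 (chr9:102717554-102717803, plus strand): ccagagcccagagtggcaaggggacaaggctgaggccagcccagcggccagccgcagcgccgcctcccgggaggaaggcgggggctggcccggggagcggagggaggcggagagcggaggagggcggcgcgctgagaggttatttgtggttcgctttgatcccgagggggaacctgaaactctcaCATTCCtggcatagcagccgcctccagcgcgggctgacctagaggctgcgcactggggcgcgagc
Lats2 (chr14:57746124-57746373, minus strand): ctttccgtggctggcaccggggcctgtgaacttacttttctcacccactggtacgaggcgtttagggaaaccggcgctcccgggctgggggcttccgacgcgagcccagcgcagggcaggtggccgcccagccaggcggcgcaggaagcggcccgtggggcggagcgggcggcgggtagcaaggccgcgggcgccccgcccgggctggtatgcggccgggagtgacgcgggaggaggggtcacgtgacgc

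Total counts lay between 17439049 and 19766604 per tumour. Levels are counts scaled to library size (CPM) with TMM factors, and the floor of 3 counts stood for 0.159 to 0.167 CPM, a limit from counting error alone. Neuroendocrine markers, which check the tumour label, summed to 5181 to 8130 CPM in the LSN tumours and to 2305 and 6756 CPM in the vehicle tumours, so that the sum was lowest in vehicle replicate 2, and each of the 10 markers was detected in all 5 tumours. The labels give the cell type as tumour cell, although markers of vessels, fibroblasts and normal lung were also present.

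LSN tumours had lower levels of both co-activators and of 3 of the 4 targets than vehicle tumours, whereas the groups overlapped in Tead1, the most abundant TEAD gene. In 7 of the 10 genes every LSN tumour was below both vehicle tumours, a pattern that 10.4% of all tested genes showed. None of the 10 passed the test after adjustment over all genes: edgeR's quasi-likelihood test called 0 of 17906 genes, which is 0% of them, with an adjusted p of 0.9996 for each of the 10. At an unadjusted p under 0.05 by edgeR, 3 of the 10 were lower and 0 higher, where 3.21% of all tested genes were lower and 1.06% higher (764 genes in all). At an adjusted p under 0.05, DESeq2, which the labels name, had 0.464% of its genes lower and 0.0755% higher, and none of these 10. In limma-voom 0 genes passed, and 858 had p under 0.05 before adjustment. The median log2 fold change of the 10 genes was -1.33, beside 0.034 over all tested genes. An exact permutation test of 3 against 2 tumours cannot give a p below 0.1.

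**Figure D1:**
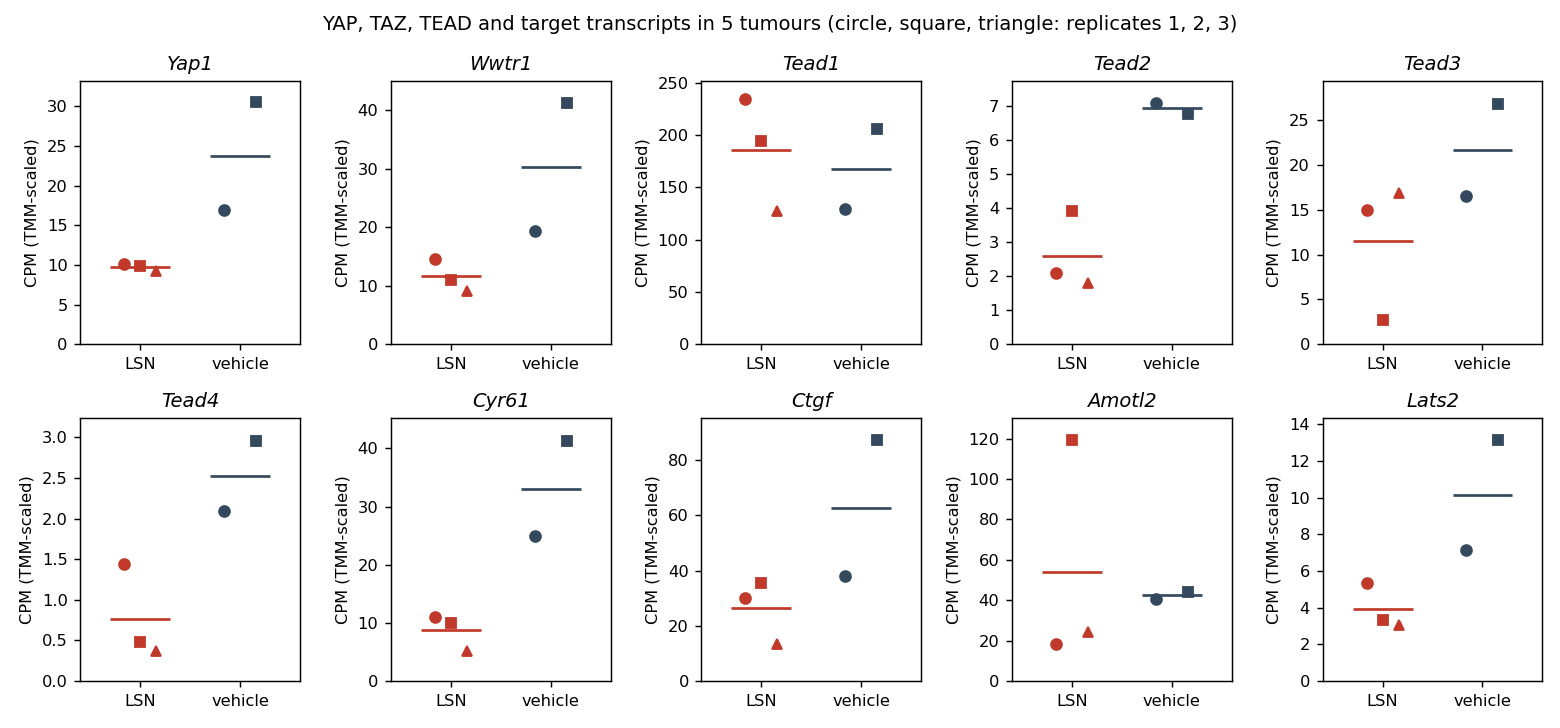
Level of each gene in the 3 LSN and 2 vehicle tumours, in TMM-scaled CPM on axes that start at 0, with a line at each group's mean. In Yap1, Wwtr1, Tead2, Tead4, Cyr61, Ctgf and Lats2 the LSN points all lie under the vehicle points, in Tead1, Tead3 and Amotl2 the groups overlap, and Amotl2 has 1 LSN tumour at 119 CPM.

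The co-activator Yap1 was at 10.1, 9.81 and 9.21 CPM in LSN replicates 1, 2 and 3, against 16.9 and 30.5 CPM in vehicle replicates 1 and 2. The LSN tumours lay close together, within 1.09 times of each other, and the vehicle tumours 1.80 times apart. The mean was 9.69 ± 0.43 CPM with LSN (SD, n = 3) and 23.7 ± 9.61 CPM with vehicle (SD, n = 2), a log2 fold change of -1.29 ± 0.40 (SE; 95% interval -2.30 to -0.29; edgeR quasi-likelihood test, unadjusted p = 0.0207). The gene lies on the minus strand of chromosome 9, from 7931999 to 8004596, in the coordinates of the deposited table (mm10).

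Wwtr1, on the minus strand of chromosome 3 from 57455649 to 57575910, was at 14.6, 11.0 and 9.11 CPM in the LSN tumours, against 19.4 and 41.2 CPM in the vehicle tumours. The groups did not overlap, and vehicle replicate 2 was again the highest by far. Its log2 fold change was -1.39 ± 0.46 (SE; 95% interval -2.53 to -0.24; edgeR quasi-likelihood test, unadjusted p = 0.0258). Per kilobase of gene length, Wwtr1 was above Yap1 in every tumour, with a ratio of Yap1 to Wwtr1 of 0.355, 0.461 and 0.522 in LSN tumours and 0.450 and 0.383 in vehicle tumours. These ratios overlapped between the groups. The sum of both transcripts did not, at 18.3 to 24.7 CPM against 36.4 and 71.7 CPM.

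The TEAD family supplies the DNA-binding part of the complex. Tead1 was at 234, 194 and 128 CPM in LSN replicates 1, 2 and 3, against 130 and 205 CPM in vehicle replicates 1 and 2. The groups overlapped, and the log2 fold change was 0.15 ± 0.36 (SE; 95% interval -0.74 to 1.04; edgeR quasi-likelihood test, unadjusted p = 0.696), an interval that leaves room for a difference in either direction.

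Tead2 was at 2.10, 3.91 and 1.80 CPM in the LSN tumours and at 7.10 and 6.75 CPM in the vehicle tumours. The groups did not overlap, and the vehicle tumours were nearly equal (log2 fold change -1.41 ± 0.59 SE; edgeR quasi-likelihood test, unadjusted p = 0.0563). Tead2 overlaps Cd37, a gene of blood cells on the opposite strand, and the library kit does not keep the strand, so reads where they overlap cannot be told apart. Cd37 was at 2.54, 4.39 and 12.3 CPM in LSN tumours and at 2.58 and 16.2 CPM in vehicle tumours, a different order from that of Tead2.

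Tead4 was near the lower end of what these libraries measure, with 26, 9 and 7 counts in LSN replicates 1, 2 and 3, against 39 and 53 counts in vehicle replicates 1 and 2. All LSN tumours were below both vehicle tumours, at 1.44, 0.482 and 0.371 CPM against 2.10 and 2.96 CPM, and the log2 fold change had a wide interval of -3.71 to 0.27 around -1.72. Tead3 was at 14.97, 2.68 and 16.9 CPM in the LSN tumours and at 16.6 and 26.8 CPM in the vehicle tumours. LSN replicate 2 stood apart with 50 counts, and the other LSN tumours were at or near the level of vehicle replicate 1 (log2 fold change -0.91 ± 0.80 SE). Without LSN replicate 2 the log2 fold change of Tead3 was -0.44 (edgeR quasi-likelihood test, unadjusted p = 0.355), and without vehicle replicate 2 it was -0.52.

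Per kilobase of gene length, Tead1 made up the larger part of the family in all 5 tumours. Its share of the summed TEAD level was 84.9%, 91.4% and 75.8% in LSN replicates 1, 2 and 3, against 67.8% and 70.9% in vehicle replicates 1 and 2. The share of Tead4 was 1.96%, 0.855% and 0.830% with LSN and 4.14% and 3.85% with vehicle, and that of Tead2 was 2.16%, 5.21% and 3.03% with LSN and 10.5% and 6.61% with vehicle. For each of these 3 genes the shares of the LSN and vehicle tumours did not overlap, while the share of Tead3, at 2.55% to 20.3% with LSN and 17.5% and 18.7% with vehicle, did. The summed level of the family overlapped between the groups, at 20.3, 15.7 and 12.4 CPM per kilobase with LSN and 14.1 and 21.4 CPM per kilobase with vehicle.

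**Figure D2:**
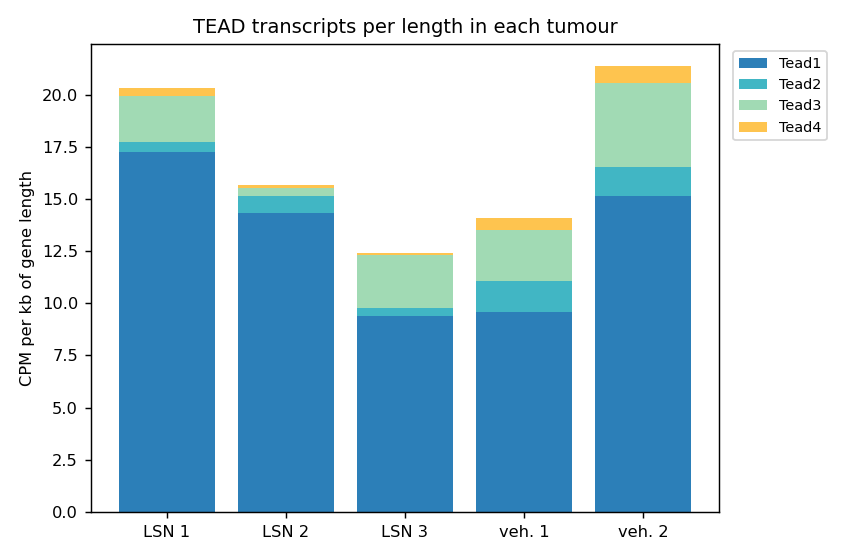
Stacked levels of the 4 TEAD genes in each tumour, in CPM per kilobase of gene length, with LSN tumours on the left and vehicle tumours on the right. Tead1 is the largest segment everywhere, and Tead3 is smallest in LSN replicate 2, at 0.399 CPM per kilobase.

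Among the targets, Cyr61 had the smallest p of the 10 genes. It was at 10.9, 9.97 and 5.14 CPM in the LSN tumours, against 24.8 and 41.3 CPM in the vehicle tumours. Every LSN tumour was below both vehicle tumours, and the highest LSN tumour was well under the lower vehicle tumour. The log2 fold change was -1.93 ± 0.48 (SE; 95% interval -3.13 to -0.73), with an unadjusted p of 0.00816 by edgeR's quasi-likelihood test and an adjusted p of 0.0711 by DESeq2. The gene lies on the minus strand of chromosome 3, from 145646976 to 145649981.

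Ctgf, on the plus strand of chromosome 10 from 24595442 to 24598683, was at 29.9, 35.4 and 13.5 CPM in the LSN tumours, against 38.0 and 87.1 CPM in the vehicle tumours. The groups were separated only by the gap between LSN replicate 2 and vehicle replicate 1. The log2 fold change was -1.25 ± 0.55 (SE; edgeR quasi-likelihood test, unadjusted p = 0.0668), and it was -0.53 without vehicle replicate 2. Lats2, the kinase gene that YAP induces as a brake on itself, was at 5.36, 3.32 and 3.07 CPM with LSN and at 7.15 and 13.2 CPM with vehicle. The groups did not overlap, with a log2 fold change of -1.37 ± 0.56 (SE; edgeR quasi-likelihood test, unadjusted p = 0.0518), and one of -0.87 without vehicle replicate 2.

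Amotl2, an angiomotin that binds YAP and holds it outside the nucleus, departed from the other targets in 1 tumour. It was at 18.4, 119 and 24.1 CPM in LSN replicates 1, 2 and 3, against 40.7 and 44.1 CPM in vehicle replicates 1 and 2. LSN replicate 2 was the highest of all tumours and LSN replicates 1 and 3 the lowest, so the log2 fold change of 0.35 ± 0.87 (SE; 95% interval -1.83 to 2.52) averages opposite values. Without LSN replicate 2 it was -1.0 (edgeR quasi-likelihood test, unadjusted p = 0.0295), and by limma-voom over all tumours it was -0.17. The ratio of Amotl2 to Cyr61 in CPM was 1.68, 11.95 and 4.69 in LSN tumours, against 1.64 and 1.07 in vehicle tumours. Of the 9 other tested genes with a mean of at least 1 CPM within 500 kb of Amotl2, 1 was highest and 3 were lowest in LSN replicate 2. Over all tested genes, this tumour was the highest for 24.8% and the lowest for 25%. That tumour minus the mean of the others was 1.99 for Amotl2 in log2 CPM and had a median of -0.77 over these 9 neighbours. Around Tead3, where the same difference was -2.72, it had a median of 0.31 over 22 neighbours, of which LSN replicate 2 was highest in 8 and lowest in 4. The neighbours were looked at after the values of both genes were seen.

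In each group 1 tumour was most often at the extreme for these genes. Vehicle replicate 2 was the highest tumour for 7 of the 10 genes, while it was the highest for 21.4% of all tested genes. LSN replicate 3 was the lowest for 8 of the 10 and for 20.5% of all tested genes. The median log2 fold change of the 10 genes was -1.33 in all tumours and -1.23 without LSN replicate 3. It was -0.77 without vehicle replicate 2 and -1.68 without vehicle replicate 1. Without vehicle replicate 2 the log2 fold changes were -0.80 for Yap1, -0.74 for Wwtr1 and -1.51 for Cyr61. Leaving out a vehicle tumour leaves only 1 in that group, so p-values of such fits, and counts of the 10 genes that rest on them, are not given. When 1 LSN tumour was dropped, the number of the 10 genes lower at an unadjusted p under 0.05 by edgeR varied. This number was 5 if the dropped tumour was replicate 1, 4 if it was replicate 2 and 1 if it was replicate 3. In the same fits 5.52%, 2.76% and 1.97% of all tested genes were lower at that threshold. Without any 1 tumour, 7 or 8 of the 10 genes had every LSN tumour below every vehicle tumour, with 15.8% to 26.3% of all genes. That count does not measure stability, because leaving out a tumour cannot make separated groups overlap, apart from small changes in scaling.

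The order of the genes by mean level per kilobase over the 5 tumours was Ctgf at 14.3 CPM per kilobase, Tead1 at 13.1, Cyr61 at 9.13, Amotl2 at 7.84, Wwtr1 at 3.99, Tead3 at 2.32, Yap1 at 1.65, Lats2 at 0.920, Tead2 at 0.905 and Tead4 at 0.408. Each gene's range over the tumours overlapped that of the next gene in this order. The top place depended on the group: Tead1 was above Ctgf in all 3 LSN tumours, at 17.3, 14.3 and 9.40 against 10.5, 12.4 and 4.72 CPM per kilobase, and Ctgf was above Tead1 in both vehicle tumours, at 13.3 and 30.5 against 9.56 and 15.1 CPM per kilobase. Tead1 varied least, within 1.84 times from the lowest to the highest tumour, Cyr61 by 8.04 times, and Tead3 most of the 10.

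Likeness between genes was measured as the root mean square difference of log2 CPM over the 5 tumours, after each gene was centred on its own mean. Yap1 and Wwtr1 differed by 0.198, Wwtr1 and Lats2 by 0.107, and Wwtr1 and Ctgf by 0.358. Amotl2 was 1.08 from Yap1 and 1.18 from Wwtr1, and Tead3 was 0.938 and 0.944 from them. Among the 5915 genes compared with Wwtr1, whose median difference was 1.02, the nearest 5 were Gprc5a, an orphan receptor of lung epithelium (0.059), Rai14, an actin-associated protein (0.087), Lats2 itself (0.107), Lhfp (0.115) and Oplah, an enzyme of glutathione turnover (0.118). Gprc5a was at 36.0, 25.5 and 22.1 CPM in LSN tumours, against 51.1 and 100.3 CPM in vehicle tumours. Among the 6968 genes compared with Yap1, whose median difference was 0.909, the nearest were Ackr3, a scavenging chemokine receptor (0.074), Tfpi, an inhibitor of coagulation made by endothelium (0.099), Pld2, a phospholipase (0.103), Gng11, a G protein subunit (0.105) and Cebpd, a transcription factor (0.130). Ackr3 was at 5.14, 5.36 and 4.45 CPM in LSN tumours and 8.01 and 15.8 CPM in vehicle tumours.

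**Figure D3:**
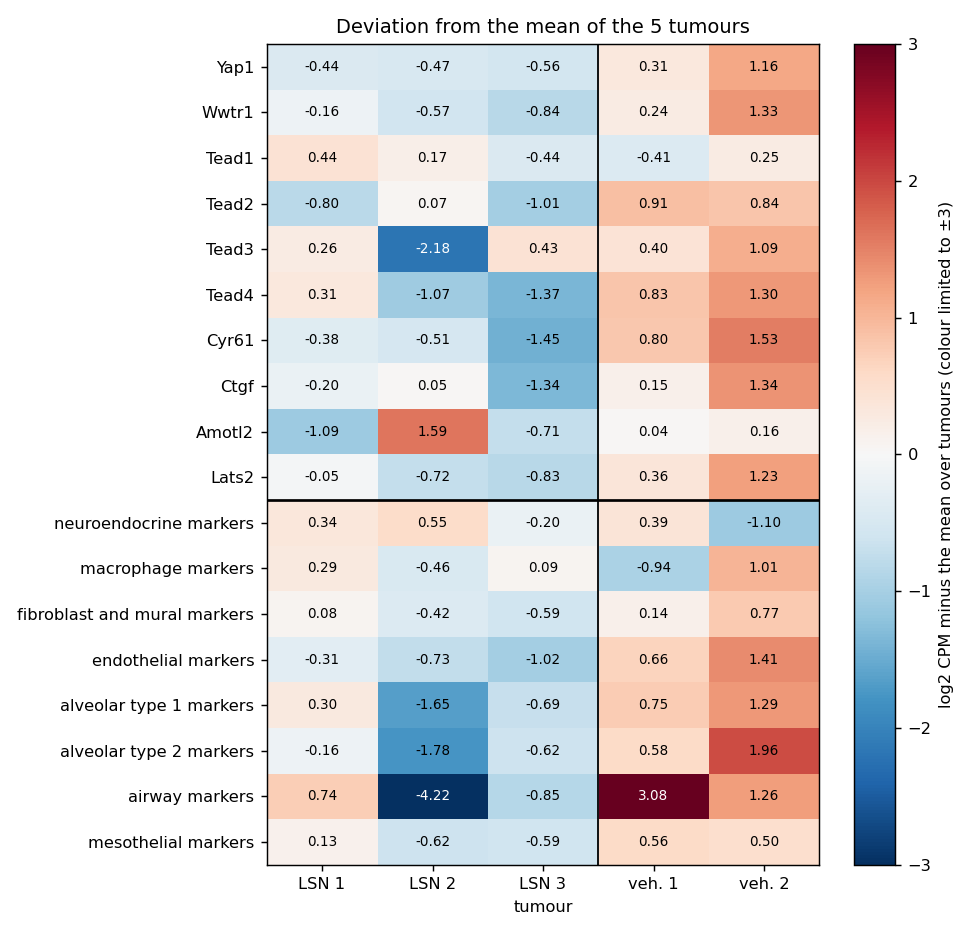
Heat map of the 10 genes (top) and of the mean of 8 marker lists (bottom) in each tumour, as log2 CPM minus the mean over the 5 tumours, with LSN tumours on the left. Most of the 10 genes and the endothelial, alveolar and fibroblast lists are highest in vehicle replicate 2, at 1.16 for Yap1 and 1.41 for endothelial markers, while Amotl2 is highest in LSN replicate 2 at 1.59.

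Marker lists of stromal and normal lung cells were mostly lower in LSN tumours too, although not all in the tumour order of the co-activators, and in bulk tissue fewer cells of a type and less RNA per cell cannot be told apart. Over all tested genes, 46.8% had a log2 fold change below 0 and 10.4% had every LSN tumour below both vehicle tumours. The 10 endothelial markers summed to 92.4 to 138 CPM in LSN tumours, against 264 and 518 CPM in vehicle tumours, all 10 had a log2 fold change below 0, and 9 of them did not overlap between the groups. The most abundant were Pecam1, an adhesion molecule of vessels, and Cdh5, the cadherin of their junctions. The 10 fibroblast and mural cell markers, led by the collagens Col3a1 and Col1a2, summed to 444 to 865 CPM with LSN and 781 and 1561 CPM with vehicle, with 9 below 0 and 4 not overlapping. The 8 alveolar type 1 markers, led by Ager and Sec14l3, summed to 92.4 to 336 CPM with LSN and 525 and 699 CPM with vehicle, and the 8 alveolar type 2 markers, led by the surfactant genes Sftpc and Sftpb, to 441 to 1377 CPM and to 2528 and 6590 CPM. The 8 airway markers, led by Scgb1a1 and Bpifa1, summed to 64.0 to 899 CPM with LSN and 2626 and 5153 CPM with vehicle, and the 6 mesothelial markers, led by Krt19 and Msln, to 43.0 to 75.1 CPM and to 127 and 143 CPM. No gene of these 6 lists was at 0 in all tumours.

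The mean pattern of the endothelial markers differed from that of Yap1 by 0.310, of Wwtr1 by 0.227, of Cyr61 by 0.234 and of Lats2 by 0.211. That of the fibroblast and mural markers differed from them by 0.299, 0.303, 0.628 and 0.291. Other members lay further from the endothelial markers, Tead4 by 0.366, Ctgf by 0.443, Tead2 by 0.505, Tead1 by 0.917 and Tead3 by 0.969. From the fibroblast and mural markers these genes differed by 0.608, 0.485, 0.598, 0.465 and 0.931. For mesothelial markers the difference was 0.407 from Yap1 and 0.430 from Wwtr1, for alveolar type 1 markers 0.658 and 0.577, and for alveolar type 2 markers 0.710 and 0.637. It was 0.715 and 0.721 for macrophage markers, 0.951 and 0.952 for T and NK cell markers, 1.17 and 1.25 for neuroendocrine markers, and 1.29 and 1.48 for heart and skeletal muscle markers. Airway markers were furthest from both, at 2.16 and 2.11. Their mean pattern ran from -4.22 in LSN replicate 2 to 3.08 in vehicle replicate 1, and that of Yap1 from -0.56 to 1.16. The measure grows with such a range as well as with a different tumour order. From Amotl2, each of these 10 lists differed by between 1.009 (neuroendocrine) and 3.09 (airway). The part of these cells in the levels of the 10 genes was not tested. Macrophage markers, led by C1qa and Cd68, overlapped between the groups, at 233 to 319 CPM with LSN and 130 and 382 CPM with vehicle, as did T and NK cell markers, led by Cd4 and Trbc2, at 4.77 to 24.7 CPM and 9.14 and 21.1 CPM. Heart and skeletal muscle markers, led by Myh6 and Acta1, were at 25.1 to 186 CPM with LSN and 63.0 and 174 CPM with vehicle.

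The core Hippo genes were split. Of 10 Hippo kinases and scaffolds, 7 had a log2 fold change above 0 and 3 below, with a median of 0.13. Over all tested genes, 46.8% were below 0. At an unadjusted p under 0.05 by edgeR 0 passed, where 3.21% of all tested genes were lower and 1.06% higher. Taok1, a kinase upstream of MST, was at 204, 155 and 190 CPM in LSN tumours, against 111 and 138 CPM in vehicle tumours. Lats1, the partner kinase of Lats2, was at 102, 146 and 105 CPM in LSN tumours, against 85.0 and 81.2 CPM in vehicle tumours. In both genes the LSN tumours all lay above the vehicle tumours, the reverse of Lats2; 8.48% of all tested genes had that pattern.

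Among 13 upstream regulators, 5 were above 0 and 8 below, with a median of -0.17, where 46.8% of all tested genes were below 0. At an unadjusted p under 0.05 by edgeR, 1 was higher, beside 1.06% of all tested genes. That gene was Amot, the angiomotin related to Amotl2, at 39.0, 41.1 and 58.1 CPM in LSN tumours and 27.2 and 24.3 CPM in vehicle tumours (log2 fold change 0.84 ± 0.30 SE; edgeR quasi-likelihood test, unadjusted p = 0.0344). Ajuba, a LIM protein that restrains LATS kinases, was at 3.92, 1.55 and 2.01 CPM in LSN tumours and 4.25 and 12.7 CPM in vehicle tumours. Of the VGLL factors, which bind TEADs in place of YAP, Vgll4 was at 41.7 to 95.2 CPM with LSN and 54.9 and 44.0 CPM with vehicle, and Vgll3 was at 1.59 to 7.68 CPM and at 3.44 and 14.0 CPM. Both overlapped between the groups, and Vgll1 and Vgll2 were too low to be tested.

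A further 18 genes, known as targets of YAP and TAZ from human cancer cells, were split. Their median log2 fold change was -0.23, with 6 above 0 and 12 below, where 46.8% of all tested genes were below 0. In 5 of them every LSN tumour was below both vehicle tumours, beside 10.4% of all tested genes. At an unadjusted p under 0.05 by edgeR, 2 were lower, beside 3.21% of all tested genes, and 0 higher. These 2 were also called lower by DESeq2. Nt5e, the surface enzyme CD73 that makes adenosine, was at 13.6, 3.27 and 7.89 CPM in LSN tumours, against 145.7 and 69.2 CPM in vehicle tumours. Its log2 fold change was -3.70 ± 0.68 (SE; adjusted p = 0.9996 by edgeR and 0.000652 by DESeq2). Foxf2, a forkhead factor of mesenchyme, was at 1.27, 0.590 and 0.688 CPM in LSN tumours, against 8.01 and 3.41 CPM in vehicle tumours (log2 fold change -2.74 ± 0.71 SE; adjusted p = 0.9996 by edgeR and 0.0378 by DESeq2). Vehicle replicate 1 was the higher vehicle tumour in both genes, unlike Yap1, Wwtr1, Cyr61 and Ctgf.

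**Figure D4:**
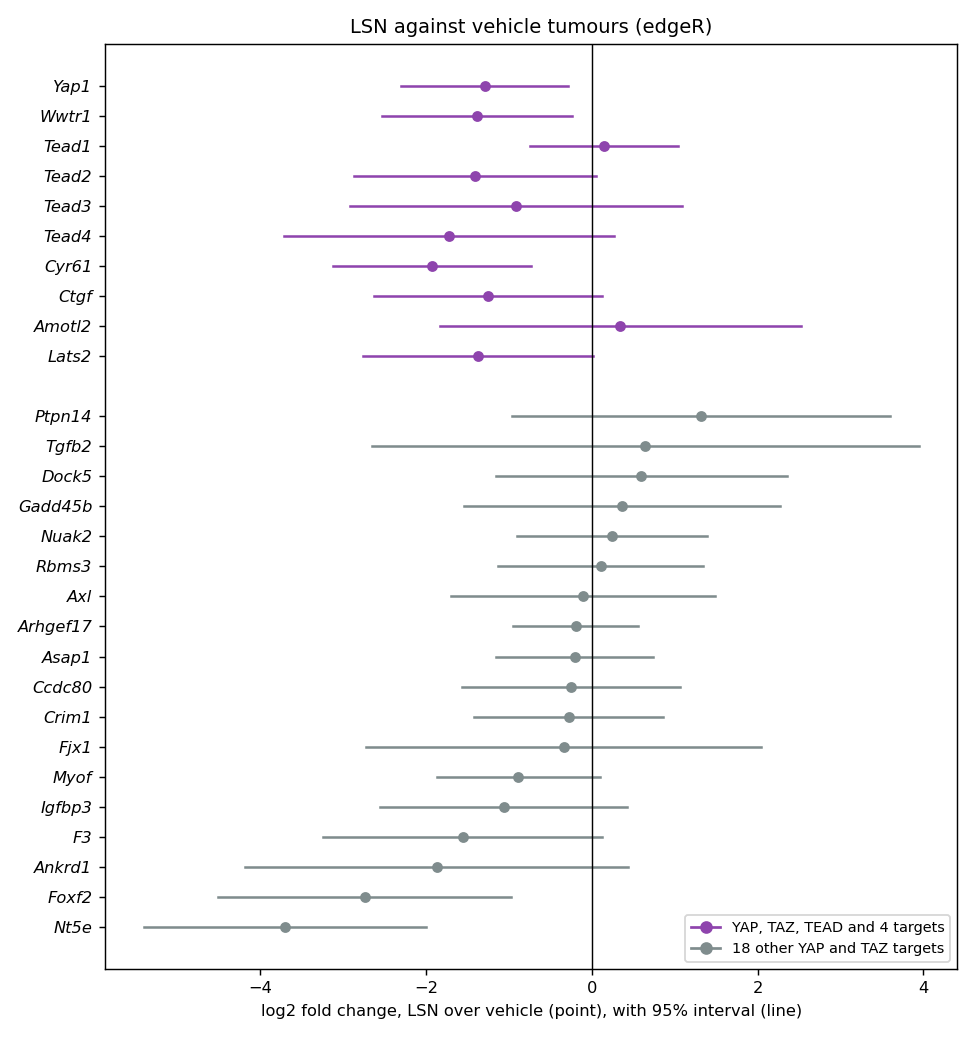
Log2 fold change of LSN over vehicle for the 10 genes (purple) and 18 other targets of YAP and TAZ (grey), with 95% intervals from edgeR. Intervals of Yap1, Wwtr1 and Cyr61 lie below 0 before adjustment for multiple testing, as do those of Nt5e and Foxf2, and the wide interval of Amotl2 runs from -1.83 to 2.52.

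LSN replicate 2 was the highest tumour for 6 of the 18 further targets and for 24.8% of all tested genes. Ptpn14, a phosphatase that binds YAP, was at 13.6, 111 and 34.6 CPM in LSN tumours, against 26.2 and 16.2 CPM in vehicle tumours, and Gadd45b, a stress-induced gene, at 33.4, 172 and 44.3 CPM, against 71.9 and 57.2 CPM. Both were named after their values were seen, because LSN replicate 2 is the highest tumour in them, as in Amotl2. The median of the 18 targets was -0.68 without LSN replicate 1, 0.01 without LSN replicate 3 and -0.50 without vehicle replicate 1, so that its distance from 0 rests on single tumours.

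Other CCN genes, the family of Cyr61 and Ctgf, overlapped between the groups in all 4 cases. Wisp1 was at 5.14, 7.34 and 2.17 CPM in LSN tumours and 7.31 and 11.8 CPM in vehicle tumours, and Wisp2 at 9.94, 8.47 and 3.07 CPM and at 8.61 and 18.1 CPM. Nov, named after its values were seen, was far above the other CCN genes at 1284, 6109 and 475 CPM in LSN tumours and 2660 and 952 CPM in vehicle tumours. Genes of the SRF pathway, which also drives Cyr61 and Ctgf, had a median log2 fold change of -0.32 over 9 genes. Of these, 4 were above 0 and 5 below, where 46.8% of all tested genes were below 0. At an unadjusted p under 0.05 by edgeR 0 passed, where 3.21% of all tested genes were lower and 1.06% higher. Acta2, smooth muscle actin, was at 30.1, 28.7 and 30.6 CPM in LSN tumours against 36.4 and 67.1 CPM in vehicle tumours, and Cnn1, calponin, at 1.93, 0.590 and 2.28 CPM against 4.46 and 3.63 CPM.

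Immediate early genes, a class to which Cyr61 also belongs and which responds to tissue handling, had a median of -0.63 over 12 genes, with 10 below 0 and 3 that were lower without overlap between the groups, beside 46.8% and 10.4% of all tested genes. Ier2 was at 15.7, 23.8 and 26.8 CPM in LSN tumours, against 60.7 and 31.8 CPM in vehicle tumours (log2 fold change -1.06 ± 0.41 SE; edgeR quasi-likelihood test, unadjusted p = 0.0429), and Zfp36 at 10.7, 16.7 and 12.9 CPM, against 28.1 and 21.9 CPM. The summed level of the list overlapped, at 409 to 594 CPM with LSN and 519 and 609 CPM with vehicle. Its part in the level of Cyr61 was not tested.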

How the data were processed

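Bulk RNA-seq was measured in 3 LSN and 2 vehicle tumours. Per the labels' protocols, RNA was column-purified and treated with DNase, libraries were made without strand information, paired ends were read on a NovaSeq, and the authors mapped reads to mm10 with STAR and tested genes with DESeq2. The STAR version, counter and annotation are not named in these sources. The authors deposited raw read counts per gene, with a gene length that per the file headers is named as such and whose definition is not given. Nothing in the labels says that tumours came from separate animals, so the p-values reflect only how much these samples vary, which may be technical, and the labels give no batch.

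Members and gene lists were chosen with earlier results of these data known. Lists (20 in all, with 7 of pathways and 10 of cell types) came from general knowledge. The main test was edgeR's robust quasi-likelihood test (version 4.0.16, R 4.3.3), with TMM scaling, filterByExpr (minimum count 10, minimum total 15), Benjamini-Hochberg adjustment over all 17906 genes at 0.05 and 3 residual degrees of freedom. The SE is the log2 fold change divided by the square root of F, an approximation, and the 95% intervals use it with edgeR's degrees of freedom. Log2 CPM used a prior count of 2. Alternatives were DESeq2 1.42.0, limma 3.58.1 (voom), a fit that was not robust, RLE scaling, total counts, no count filter, 1 CPM in 2 tumours and each tumour left out. The test was checked on simulated data.

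Named genes were all 10 members, from each pathway list the 2 with the smallest p and any other at an unadjusted p under 0.05, from each cell type list the 2 most abundant genes, and for Yap1 and Wwtr1 the 5 nearest in pattern, among genes averaging 5 CPM or more with a minimum spread, leaving out predicted genes and pseudogenes. The most abundant neuroendocrine markers are not reported here. Other genes are said to have been named after their values were seen.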

Additional observations from a re-analysis of the deposited data

How the results depend on the processing

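The number of genes called was 0 in the edgeR fits and limma-voom and 100 by DESeq2, and it was 0 without each single tumour (lowest and highest 0). The median log2 fold change of the 10 genes lay between -1.41 and -1.28 under the other tests, scalings and filters and between -1.68 and -0.77 without single tumours. That of the 18 other targets lay between -0.68 and 0.01 without single tumours, and it was within the spread between replicates under the other settings. The number of the 10 genes lower at an unadjusted p under 0.05 by edgeR lay between 1 and 5 without single LSN tumours. The share of all tested genes lay between 1.97% and 5.52%. That number is not given without single vehicle tumours, because such a fit leaves 1 tumour in the vehicle group. The number with every LSN tumour below every vehicle tumour was 7 or 8 without single tumours, a count that could hardly fall below 7. Both counts were tried without single tumours after the data were seen. Of the 10 genes, 8 kept a log2 fold change below 0 under all 12 alternatives. Without single tumours, Tead1 ranged from -0.14 to 0.52 and Amotl2 from -1.0 to 0.75. Tead1 was at -0.06 without LSN replicate 1 and -0.14 without vehicle replicate 1, and Amotl2 at -1.0 without LSN replicate 2 and -0.17 by limma-voom. The cause of these changes of sign was not tested. No paired analysis was possible because the labels give tumour numbers that differ between all samples. Depth was low for Tead4, with 7 to 53 counts, and for Tead2, with 34 to 132.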
